A study of Mus musculus with 6 samples.

Results

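Cd163+ Folr2+ macrophages were the macrophages of a mouse pancreatic tumor in which transcripts of both Cd163, the scavenger receptor for hemoglobin-haptoglobin complexes, and Folr2, the folate receptor beta, were counted. They were chosen by a rule on unique molecular identifiers (UMIs, 1 per captured transcript). A barcode had to hold at least 1000 detected genes, at most 10% mitochondrial UMIs and 1 hashtag antibody with at least 2/3 of its antibody UMIs. At least 3 of the macrophage genes Csf1r, C1qa, C1qb and Adgre1 had to be detected, with at most 3 UMIs of the epithelial keratins Krt8 and Krt18 together and 0 UMIs of the lymphocyte genes Cd3e, Ncr1 and Klrb1c. Cells that the study had annotated as T or NK cells were left out. Of 130444 barcodes, 60351 passed the quality and hashtag clauses, 21633 of these were macrophages, and 1356 macrophages had at least 1 UMI of Cd163 and at least 1 of Folr2. None of these genes was tested, because they chose the cells, and the levels of Cd163 and Folr2 are given below as a description.

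The cells came from subcutaneous tumors grown in C57BL/6 mice from 6694c2vTRP1, a cultured line of pancreatic ductal adenocarcinoma cells. Mice received intraperitoneal PBS, mono-IL10 (26 µg per mouse) or IL10/2-Trikine (30.6 µg per mouse), 2 doses in all, the first on day 8, and tumors were taken on day 14. Mono-IL10 is a monomeric, engineered form of the cytokine interleukin-10, and IL10/2-Trikine is the same cytokine joined to an interleukin-2 variant that brings the interleukin-2 receptor beta chain to the interleukin-10 receptor. CD45+ cells, the cells of the blood lineages, were isolated on beads, the cells of the 5 mice of a treatment were marked with 1 hashtag antibody each and pooled, and each pool gave 1 library. A hashtag therefore stands for 1 mouse, 15 in all, but a treatment and its library cannot be told apart. The methods name mice of both sexes for this tumor model and give ages for other experiments, that with the parental line included, but not for these mice. Mouse numbers are hashtag numbers that tie no mouse of 1 treatment to a mouse of another.

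Macrophages with Cd163, Folr2 and the mannose receptor Mrc1 are known in many tissues as long-lived resident cells that sit near blood vessels, take up debris, hemoglobin and iron, and release chemokines and growth factors. Cd163 is a textbook target of interleukin-10, which acts in myeloid cells through its receptor chains Il10ra and Il10rb, the kinases Jak1 and Tyk2, and the transcription factor Stat3. The interleukin-2 receptor beta chain signals mainly through Stat5 and is carried chiefly by T and NK cells.

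The 3 libraries held 515236552, 458860129 and 364814102 gene UMIs for PBS, mono-IL10 and IL10/2-Trikine. There were 251, 694 and 411 Cd163+ Folr2+ macrophages, or 15 to 77, 63 to 224 and 10 to 171 per mouse, with medians of 6915, 7109 and 3418 UMIs per cell. Their summed UMIs per mouse ran from 116513 to 648918 in PBS, from 492395 to 1993734 in mono-IL10 and from 38664 to 713420 in IL10/2-Trikine, so that the values of IL10/2-Trikine mouse 4, which rest on 10 cells, are the least precise. The other macrophages were nearly as deep, with medians of 5943, 6829 and 3189 UMIs. Among the macrophages, 39 barcodes occurred in more than 1 library, and among the Cd163+ Folr2+ cells 0 did. Hemoglobin genes and the Y-linked genes Ddx3y, Uty, Kdm5d and Eif2s3y were at 0 UMIs in these cells in every mouse. Xist, transcribed in female cells, was counted in every mouse, so that the cells read as female. It ran from 712 to 1012 UMIs per 1000000 gene UMIs in PBS, 596 to 780 in mono-IL10 and 856 to 1346 in IL10/2-Trikine. Fibroblast genes summed to 4340 plain CPM (UMIs per 1000000 gene UMIs of these cells) in mono-IL10 mouse 2, and by group they ran from 7.12 to 53.9 in PBS mice (median 14.9), from 8.15 in mono-IL10 mice (median 20.6) and from 25.9 to 535 in IL10/2-Trikine mice (median 241). B cell genes had medians of 11.2, 19.6 and 86.9 plain CPM, with ranges of 0 to 171, 4.06 to 32.4 and 36.8 to 103. Both lists thus had their highest medians in the IL10/2-Trikine mice, and their part in the treatment results was not tested except where cells holding such transcripts were left out.

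The gate was sparse in UMIs. Cd163 had a median of 2, 4 and 3 UMIs per cell in PBS, mono-IL10 and IL10/2-Trikine, and Folr2 of 2, 2 and 1. Exactly 1 UMI of each gene was counted in 190 of the 1356 cells (14.0%), and 3 or more of each in 374 (27.6%). Just outside the gate lay 587 macrophages with Cd163 alone and 5658 with Folr2 alone. Folr2 was present in 74.7%, 75.5% and 59.7% of the macrophages with Cd163, and in 22.4%, 40.8% and 26.0% of those without it. As a background level, both genes were counted together in 0 of 516 annotated T and NK cells of the PBS library, which allows a share of up to 0.581%, in 0 of 843 of the mono-IL10 library (up to 0.356%) and in 2 of 725 of the IL10/2-Trikine library (0.276%), at median depths of 2780, 3959 and 2635 UMIs. In keratin-rich barcodes, with over 20 UMIs of Krt8 and Krt18, the shares were 0.925%, 1.62% and 1.40%, at higher median depths of 28740.5, 36275 and 12583 UMIs. These limits cover counting error only.

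More of the macrophages were Cd163+ Folr2+ in mice given mono-IL10. In PBS mice 1 to 5 the share was 4.56%, 2.05%, 3.31%, 0.859% and 4.60% of all macrophages (3.08% ± 1.62, mean ± SD, n = 5). In mono-IL10 mice it was 11.9%, 12.3%, 8.999%, 5.81% and 12.2% (10.2% ± 2.82). In IL10/2-Trikine mice it was 5.80%, 8.77%, 10.3%, 1.85% and 5.76% (6.49% ± 3.25). The mono-IL10 mice all lay above the PBS mice, and the IL10/2-Trikine mice overlapped both groups. That separation ended at a hashtag share of at least 0.8, with mono-IL10 mouse 4 at 5.78% and PBS mice 1 and 3 at 6.31% and 6.03%. The IL10/2-Trikine cells were shallower, and after every macrophage was thinned to 3000 UMIs, which left out 997, 521 and 2856 shallower ones, the mean shares were 1.65%, 6.02% and 5.74%. Over all macrophages, in or out of the gate, Cd163 stood at 16.7 ± 8.77, 103 ± 54.5 and 115 ± 68.7 plain CPM in PBS, mono-IL10 and IL10/2-Trikine (SD, n = 5 each), and Folr2 at 78.7 ± 24.4, 157 ± 24.7 and 140 ± 40.6. A share of cells past a gate on Cd163 and the Cd163 level of the macrophages cannot be told apart, and no test was made of either.

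**Figure D1:**
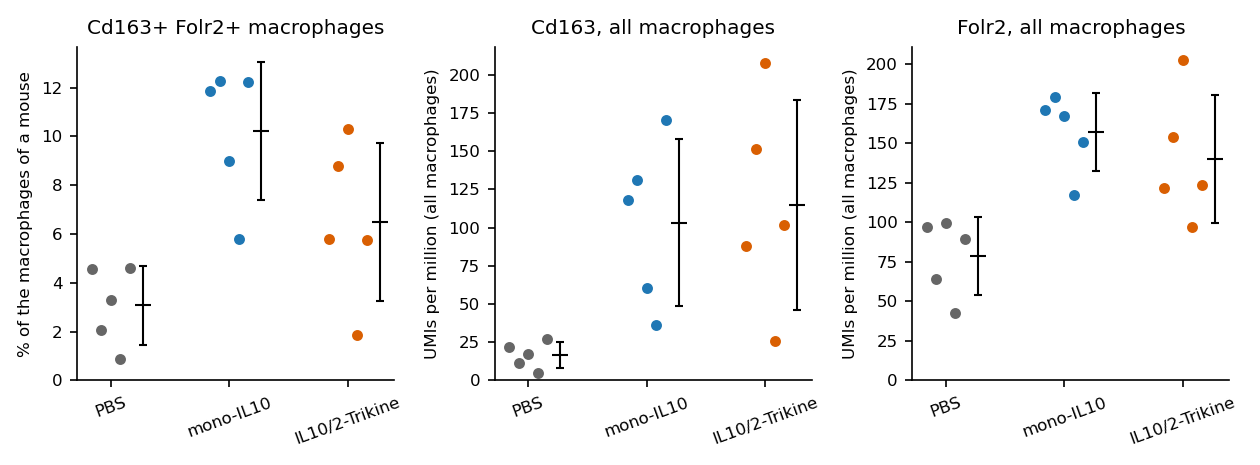
Share of macrophages that were Cd163+ Folr2+ (left, percent) and the Cd163 (middle) and Folr2 (right) level over all macrophages (plain CPM), by treatment. Each point is a mouse and the black mark is the mean ± SD of 5 mice. The shares of mono-IL10 mice (5.81% to 12.3%) lay above those of PBS mice (0.859% to 4.60%), and those of IL10/2-Trikine mice spanned 1.85% to 10.3%.

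The names the cells go by were checked against their other marker genes, in CPM, which from here on are UMIs per 1000000 after trimmed-mean scaling unless plain CPM are named. Mrc1 averaged 2168, 3526 and 3211 CPM in the Cd163+ Folr2+ cells of PBS, mono-IL10 and IL10/2-Trikine mice against 1103, 2141 and 2224 in the other macrophages, and was higher in 14 of 15 mice. Pf4, a platelet-type chemokine also made by resident macrophages, averaged 4046, 5456 and 3915 CPM against 2423, 2880 and 2433 and was higher in 15 of 15. Nrg1, a ligand of the EGF receptor family, averaged 465, 1362 and 952 CPM against 548, 1276 and 1022 and was higher in 7 of 15, so that Nrg1 did not set the cells apart from the other macrophages. Inside the gate, Cd163 was 376, 433, 363, 327 and 431 CPM in PBS mice 1 to 5, 957, 941, 618, 571 and 968 in mono-IL10 mice and 992, 1172, 1453, 733 and 1117 in IL10/2-Trikine mice. Every cytokine-treated mouse lay above every PBS mouse. Folr2 averaged 445 ± 58.5, 448 ± 39.9 and 518 ± 104 CPM (SD, n = 5 each), with overlapping mice. Both genes chose these cells, so that their levels inside the gate are a description only. The required 1 UMI also weighs more in CPM in the shallower IL10/2-Trikine cells (median 3418 UMIs against 6915 in PBS and 7109 in mono-IL10).

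Compared with the other 20277 macrophages of the same mice, the Cd163+ Folr2+ cells carried more transcripts of resident and perivascular macrophage genes and of CC chemokines, and fewer of MHC class II, of hypoxia and of inflammatory genes. With the mouse as a block in edgeR's quasi-likelihood test, 2202 of 9133 genes differed at an adjusted p under 0.05 (24.1%), 1054 higher (11.5%) and 1148 lower (12.6%) in the gated cells. Of these, 407 differed in the same direction in all 15 mice, counting only genes with a mean of at least 20 CPM in 1 set and leaving out gene models. Over all 9133 genes, without these limits or a call, 429 (4.70%) did so. The list of resident and perivascular genes held 28, of which 19 were tested here. Of these 19, 17 were higher and 0 lower, with a median log2 difference of 1.16, while the median over all genes was near 0. Ltc4s and Ccl24 of that list did not pass the test. Timd4, Vsig4, Marco, Hpgd, Cd209d, Cd209f and Cd209g were not among the genes kept for it, and Mrc1 and Pf4 were left out of it.

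Among the resident genes, Fcna (ficolin A, a lectin of innate defense) was lowest, middle and highest at 63.5, 141 and 301 CPM in the gated cells of the 15 mice and at 12.8, 26.05 and 42.04 in the others. The 2 ranges did not overlap, and the log2 difference was 2.51 ± 0.16 (SE; adjusted p = 5.74e-09). Cbr2, a carbonyl reductase, was 108, 219 and 503 CPM against 19.9, 44.2 and 59.6, a log2 difference of 2.43 ± 0.16 (adjusted p = 1.31e-08). Lyve1, the hyaluronan receptor that marks perivascular macrophages, was 0, 31.1 and 173 CPM against 0.959, 3.21 and 15.9 and higher in 13 of 15 mice, at a low level in most of them (log2 difference 2.91 ± 0.33, adjusted p = 5.36e-06). Maf, a transcription factor of resident macrophages, was 426, 561 and 802 CPM against 203, 267 and 410.2 without overlap, a log2 difference of 1.16 ± 0.05 (adjusted p = 8.51e-22). The growth factors Igf1 (log2 difference 1.09 ± 0.11) and Gas6, the ligand that bridges dying cells to Axl and Mertk (1.32 ± 0.14), belonged to the genes that were higher, as did the scavenger receptor Stab1 (0.83 ± 0.06), the selenium carrier Selenop (0.64 ± 0.05) and Fcgrt, the receptor that recycles IgG (1.28 ± 0.06). C4b, a complement component, was higher by 1.64 ± 0.24, with the reservation that its reads may be shared with the near-identical C4a.

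Of 12 CC chemokines, which attract leukocytes, 7 were higher and 0 lower, with a median log2 difference of 0.42. Ccl7 was 1268, 1878 and 2982 CPM in the gated cells and 398, 638 and 1041 in the other macrophages, higher in every mouse and without overlap (log2 difference 1.57 ± 0.05, adjusted p = 3.45e-29). Ccl2 was 387, 823 and 2041 CPM against 160.1, 317 and 541 (1.55 ± 0.09, adjusted p = 2.30e-09). Ccl8 was 2213, 6502 and 10076 CPM against 736, 2126 and 3323 (1.73 ± 0.13, adjusted p = 6.53e-08). All 3 were higher in 15 of 15 mice, although the ranges of Ccl2 and Ccl8 overlapped across mice. Ccl12 (0.97 ± 0.10), Ccl3 (0.54 ± 0.06) and Ccl4 (0.42 ± 0.06) were higher by less, and Ccl5, a T cell attractant, did not pass (-0.52 ± 0.20, adjusted p = 0.0835).

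Complement genes were higher for 7 of 9 tested and lower for Itgax, with a median of 0.30, among them the anaphylatoxin receptor C3ar1 (0.48 ± 0.06). Heme and iron genes split, 4 higher and 4 lower of 14. The heme-degrading enzyme Hmox1 was 316, 462 and 1266 CPM against 185, 250.2 and 322 and higher in 15 of 15 mice (1.06 ± 0.14, adjusted p = 4.07e-05), and the iron exporter Slc40a1, ferroportin, was also higher (1.05 ± 0.18). The iron store Fth1, ferritin heavy chain, was lower in every mouse, at 5710.5, 8398 and 13741 CPM against 8998, 13103 and 17886 (-0.56 ± 0.04, adjusted p = 1.55e-15), and so was the phagosomal metal transporter Slc11a1 (-0.66 ± 0.06). Scavenger receptors were 3 higher and 3 lower of 9, with the efferocytosis receptor Mertk higher (0.42 ± 0.06) and its relative Axl lower (-1.40 ± 0.09). Growth factors were 5 higher and 3 lower of 12, with Pdgfc (0.97 ± 0.07) and Gdf15 (1.20 ± 0.11) higher, and the EGF receptor ligand Areg (-1.43 ± 0.26) and the angiogenic factor Vegfa (-0.66 ± 0.08) lower.

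MHC class II genes, which present antigen to CD4+ T cells, were lower for 8 of 9 tested and higher for none, with a median log2 difference of -1.30. Cd74, the invariant chain, was 752, 1504 and 4099.6 CPM in the gated cells and 3380.2, 4940.4 and 9062 in the others and lower in 15 of 15 mice (-1.84 ± 0.09, adjusted p = 5.39e-10). H2-Aa was 293, 566 and 1883 CPM against 1335, 2013 and 3832 (-1.82 ± 0.13, adjusted p = 2.94e-08). The class II transactivator Ciita was also lower (-0.91 ± 0.18, adjusted p = 1.10e-04). Of 11 MHC class I genes, 2 were higher and 0 lower.

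Of 15 hypoxia and glycolysis genes, 14 were lower and 0 higher, with a median of -0.44. The glucose transporter Slc2a1 was 25.9, 53.6 and 84.8 CPM against 57.9, 90.9 and 147 and lower in every mouse (-0.95 ± 0.08, adjusted p = 4.32e-13), and the lactate dehydrogenase Ldha differed by -0.44 ± 0.05. Inflammatory genes were 5 lower and 1 higher of 11, with Il1b at 1516, 2956 and 4198 CPM against 3459, 5034 and 7544 (-0.90 ± 0.08) and the prostaglandin synthase Ptgs2 also lower (-0.91 ± 0.07). Il1b and Cxcl2 are also abundant in neutrophils, whose markers summed to medians of 1424, 885 and 736 plain CPM in the gated cells of PBS, mono-IL10 and IL10/2-Trikine mice and 1430, 980 and 1145 in the others, and their part in these differences was not tested. Mmp12, the macrophage elastase, was the gene with the largest fall among those lower in every mouse (-2.11 ± 0.26, adjusted p = 1.36e-05). Of the IL-10 receptor and STAT3 response list, 2 of 18 were higher (Il4ra, 0.53 ± 0.05, and Il10rb) and 6 lower, Socs3 among them (-0.27 ± 0.05). None of 16 cell cycle genes differed, with Mki67 at -0.02 ± 0.19 (adjusted p = 0.986).

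**Figure D2:**
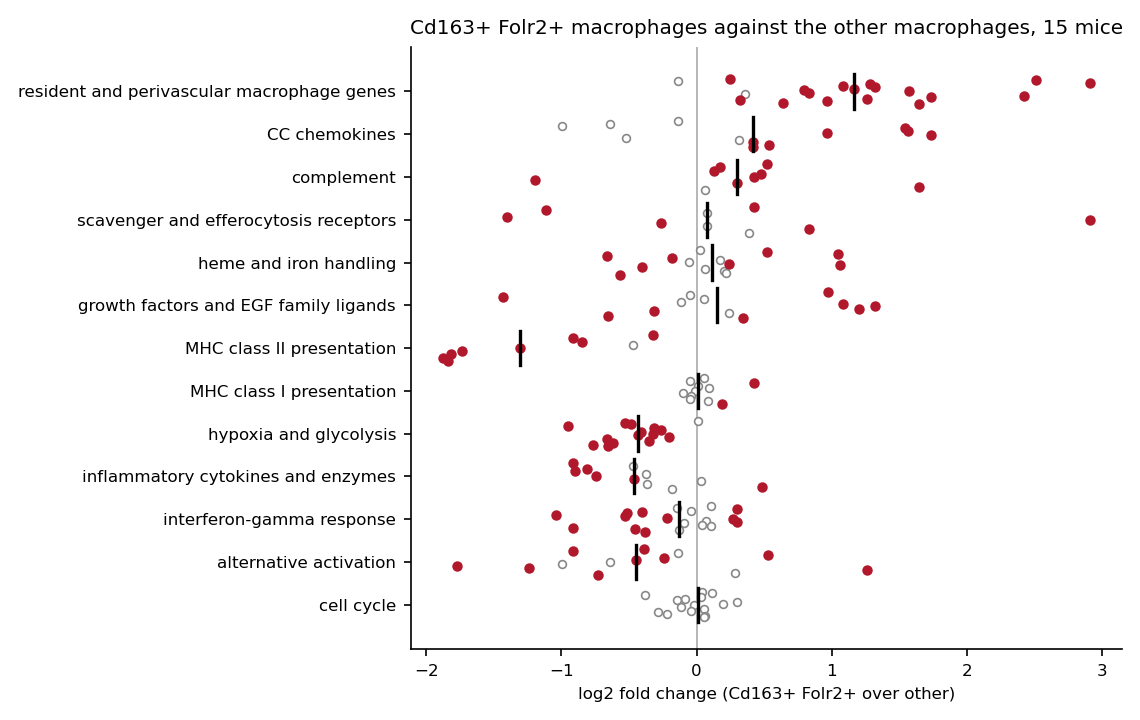
Log2 difference between Cd163+ Folr2+ macrophages and the other macrophages of the same mice (horizontal axis) for the tested genes of 13 lists (rows). Red points passed an adjusted p of 0.05, open grey points did not, and the black bar is the list's median. Resident genes sat to the right (median 1.16) and MHC class II genes to the left (median -1.30), while cell cycle genes sat around 0.

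The same cells were then set against 2 macrophage sets without Cd163. One had at least 1 UMI of Cx3cr1, the fractalkine receptor (7074 cells), and the other had at least 10 UMIs of arginase 1, Arg1, and none of Cx3cr1 (4234 cells). Against the Cx3cr1+ set, 2176 of 9028 genes differed (24.1%), 1120 higher (12.4%) and 1056 lower (11.7%). Against the Arg1-high set, 3508 of 9027 differed (38.9%), 1780 higher (19.7%) and 1728 lower (19.1%). Of the called genes, 292 and 632 differed the same way in every mouse, under the same limits on level and gene models as above. The share over all genes was not counted for these 2 sets, so that the 292 and 632 cannot be read against it. Resident genes were higher against both sets (18 of 19 and 17 of 19, medians 1.19 and 1.42), with Ccl24 lower against the Arg1-high set, MHC class II genes lower (8 of 9 and 7 of 9, medians -1.35 and -1.24), and hypoxia genes lower (11 of 16 and 15 of 16, medians -0.26 and -0.98). Cell cycle genes went opposite ways, 0 higher and 9 lower of 17 against the Cx3cr1+ set (median -0.53) and 11 higher and 0 lower against the Arg1-high set (median 0.55).

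Against the Arg1-high set, the inducible nitric oxide synthase Nos2 was lower, at 3.13 ± 5.42 CPM against 24.2 ± 11.1 in that set (SD, 15 mice; log2 difference -3.64 ± 0.37). So were the cell fusion protein Dcstamp (-2.62 ± 0.19), the activin A subunit Inhba (-2.44 ± 0.22) and the lipoprotein lipase Lpl (-2.31 ± 0.38). Higher against that set were Cbr2 (3.47 ± 0.16), the cholesterol hydroxylase Ch25h (3.29 ± 0.30), the terminal complement component C6 (2.74 ± 0.28) and Ccl8 (2.74 ± 0.14). Against the Cx3cr1+ set the endothelin receptor Ednrb (2.13 ± 0.20) and the gap junction protein Gja1, connexin 43 (1.72 ± 0.13), were among the genes most raised in every mouse, and Axl (-1.60 ± 0.09) and the lectin Mgl2 (-1.19 ± 0.18) among those most lowered. Each of these genes had an adjusted p of 1.00e-05 or less.

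Inside the gate, the treatments were compared over summed UMIs of the 5 mice of each group, with 6812 genes tested. Against PBS, 762 genes changed with mono-IL10 (11.2%), 413 up (6.06%) and 349 down (5.12%), and 301 with IL10/2-Trikine (4.42%), 141 up (2.07%) and 160 down (2.35%). Without IL10/2-Trikine mouse 1 or 2 the latter count was 196 or 170. Both comparisons use the same PBS mice. Groups of mice that did not overlap were seen for 8.98% and 3.96% of genes. Because the gate was set on Cd163 and the mean share that passed it was higher in both treated groups, a different mix of cells inside the gate and a change within the cells cannot be told apart. The gate set on Folr2 alone kept 2100, 3014 and 1900 cells of PBS, mono-IL10 and IL10/2-Trikine, the Cd163+ Folr2+ cells included. There 2392 and 1367 genes changed, among the genes that passed the filter in those larger sums. Leaving out cells with any UMI of Krt8, Krt18, Epcam, Col1a1, Pecam1 or Cd79a kept 120, 313 and 231 cells. In those, 285 and 88 genes changed.

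Genes of the interleukin-10 receptor and STAT3 list rose with mono-IL10, 9 of 18 tested and none lowered, with a median log2 fold change of 0.29 against -0.01 over all genes. With IL10/2-Trikine 1 of 18 was raised, Il4ra, and the median was 0.07. Il4ra, the interleukin-4 receptor alpha chain and a known interleukin-10 target, was 196, 256, 201, 176 and 217 CPM in PBS mice 1 to 5, 576, 569, 530.0, 478 and 547 in mono-IL10 mice and 411, 429, 689, 587 and 458 in IL10/2-Trikine mice. Both treated groups lay wholly above PBS, by 1.34 ± 0.13 (± SE, adjusted p = 4.39e-09) and 1.19 ± 0.14 (adjusted p = 7.30e-07) on the log2 scale, and they overlapped each other. Socs3, the feedback inhibitor that STAT3 induces, was 261, 367, 218, 193 and 250.5 CPM in PBS, 429, 414, 382, 357 and 383 in mono-IL10 and 276, 301, 311, 342 and 282 in IL10/2-Trikine. PBS mouse 2 overlapped the mono-IL10 mice, and the change was 0.57 ± 0.12 (adjusted p = 0.00205) with mono-IL10 and 0.14 ± 0.14 (adjusted p = 0.762) with IL10/2-Trikine. Il1rn, the interleukin-1 receptor antagonist, averaged 613 ± 203, 1166 ± 174 and 782 ± 140.3 CPM (SD, n = 5), up by 0.88 ± 0.18 with mono-IL10 (adjusted p = 0.00271) and 0.33 ± 0.19 with IL10/2-Trikine (adjusted p = 0.409, not past the threshold). Ddit4, a stress-induced inhibitor of mTOR signaling, averaged 27.9 ± 20.05, 149.8 ± 38.7 and 44.2 ± 29.3 CPM and rose with mono-IL10 by 2.52 ± 0.36 (adjusted p = 3.00e-04).

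The transcription factors Nfil3 (1.01 ± 0.23), Sbno2 (0.56 ± 0.16), Cebpb (0.39 ± 0.12) and Stat3 itself (0.43 ± 0.13) also rose with mono-IL10. Leaving out PBS mouse 1 or mono-IL10 mouse 1 ended the calls of Stat3 and Sbno2, the former leaving 0.33 (adjusted p = 0.120) for Stat3 and 0.45 (adjusted p = 0.0961) for Sbno2. So did leaving out PBS mouse 3 for Stat3, PBS mouse 5 for Sbno2, and PBS mouse 3 or 4 or mono-IL10 mouse 1 or 2 for Cebpb (adjusted p from 0.0537 to 0.0847). With macrophages thinned to 3000 UMIs, Stat3 stood at -0.033 (adjusted p = 0.949), Sbno2 at 0.61 (adjusted p = 0.212) and Socs3 at 0.36 (adjusted p = 0.302). The receptor chains themselves did not pass, with Il10ra at -0.14 ± 0.14 and Il10rb at 0.10 ± 0.13. Of 12 interleukin-2 receptor and STAT5 genes, 4 rose with mono-IL10 and 0 with IL10/2-Trikine, although the medians of the list were 0.28 and 0.32. The 4 were the kinase Jak3 (0.84 ± 0.22), the cytokine Osm (0.59 ± 0.17), the receptor chain Csf2rb (0.42 ± 0.12) and Pim1 (0.32 ± 0.11), which is also on the STAT3 list.

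The promoters of the genes of the STAT3 list that rose were searched for TTCNNNGAA, the spacing that STAT3 and STAT5 bind, on either strand, which reads the same on both. RefSeq promoters (250 bases before the transcription start, GRCm38.p6, not the GRCm39 build of the counts) were found for 9 of the 9 genes, 14 windows in all, and 3 windows of 2 genes, Socs3 and Sbno2, held the motif. Over all RefSeq mouse promoters of that length, 7.02% of 32851 windows held it. The 3 windows are printed 5′ to 3′ on the gene's strand, with the motif in capitals, since they show where these letters lie in the 2 genes. They are Socs3 (chr11:117969367-117969616, minus strand, motif beginning 154 bases before the start), Sbno2 at its upstream start (chr10:80102703-80102952, minus strand, 26 bases before) and Sbno2 at its other start (chr10:80101188-80101437, minus strand, 24 bases before).
Socs3: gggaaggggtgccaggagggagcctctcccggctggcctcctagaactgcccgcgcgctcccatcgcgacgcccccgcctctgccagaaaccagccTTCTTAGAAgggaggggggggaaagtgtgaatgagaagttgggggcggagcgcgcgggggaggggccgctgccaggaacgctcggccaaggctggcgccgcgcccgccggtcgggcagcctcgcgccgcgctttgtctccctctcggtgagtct
Sbno2, upstream start: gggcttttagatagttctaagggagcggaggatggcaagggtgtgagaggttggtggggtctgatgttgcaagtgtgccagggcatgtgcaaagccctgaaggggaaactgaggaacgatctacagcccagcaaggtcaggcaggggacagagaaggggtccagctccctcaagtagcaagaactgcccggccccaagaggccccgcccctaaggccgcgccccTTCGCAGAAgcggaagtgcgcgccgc
Sbno2, other start: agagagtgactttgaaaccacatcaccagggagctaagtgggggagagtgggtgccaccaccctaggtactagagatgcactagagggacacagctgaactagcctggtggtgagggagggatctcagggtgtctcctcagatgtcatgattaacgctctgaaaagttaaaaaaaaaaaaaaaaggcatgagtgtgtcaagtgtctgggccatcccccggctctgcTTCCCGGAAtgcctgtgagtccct
A match is a description of the sequence and not a binding site, and an absent match in the other 7 genes covers only this window.

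The Fc gamma receptors, which bind IgG on opsonized cells, rose with mono-IL10 for 5 of 5 genes, with a median log2 change of 0.53, and for 1 of 5 with IL10/2-Trikine (median 0.19). Between the 2 proteins 0 of 5 differed, with a median of -0.22. Fcgr4 was 98.1, 136, 98.6, 143 and 97.1 CPM in PBS mice, 218, 183, 218, 137 and 191 in mono-IL10 mice and 203, 176, 169.8, 147 and 253 in IL10/2-Trikine mice. The IL10/2-Trikine mice all lay above PBS, and mono-IL10 mouse 4 overlapped it. Fcgr4 rose by 0.79 ± 0.15 (adjusted p = 4.81e-04) and 0.83 ± 0.17 (adjusted p = 0.00223). With mono-IL10 the others changed by 0.58 ± 0.14 (Fcgr1), 0.53 ± 0.12 (Fcgr3), 0.40 ± 0.10 (the inhibitory Fcgr2b) and 0.48 ± 0.12 (the shared signaling chain Fcer1g). The receptor genes are alike in sequence in part, so the split of UMIs between them is uncertain, and with macrophages thinned to 3000 UMIs Fcgr1, Fcgr2b, Fcgr3 and Fcer1g no longer passed (adjusted p from 0.120 to 0.634).

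Lysosome and matrix protease genes rose for 8 of 19 with mono-IL10 and for 2 with IL10/2-Trikine, none falling, with medians of 0.45 and 0.06. The cysteine protease Ctsl averaged 870.2 ± 231, 2131 ± 194 and 1575 ± 346 CPM and rose by 1.27 ± 0.15 (adjusted p = 3.55e-06) and 0.86 ± 0.15 (adjusted p = 0.0011). Timp1, an inhibitor of matrix metalloproteases, was 23.7, 17.97, 14.1, 8.38 and 27.2 CPM in PBS mice, 167, 184, 128, 112 and 101 in mono-IL10 mice and 53.2, 126, 151, 48.9 and 98.4 in IL10/2-Trikine mice. Neither treated group overlapped PBS, with changes of 2.75 ± 0.29 (adjusted p = 2.36e-06) and 2.17 ± 0.35 (adjusted p = 5.51e-04). The matrix genes Tgfbi and Fn1, which are outside the lists and were named by the size and separation of their change, moved likewise. Tgfbi averaged 561 ± 55.8, 1926 ± 245 and 1115 ± 262 CPM, up by 1.77 ± 0.12 (adjusted p = 2.42e-12) and 1.02 ± 0.13 (adjusted p = 1.71e-06). Fn1, fibronectin, averaged 785 ± 243, 2525 ± 276 and 2326 ± 778 CPM, up by 1.67 ± 0.24 and 1.57 ± 0.25. Fibronectin is also a fibroblast gene, and the fibroblast markers had a higher median in the IL10/2-Trikine mice too (241 plain CPM against 14.9 in PBS). Without cells holding any UMI of Col1a1 or of the epithelial, endothelial and B cell genes of the stricter gate, the IL10/2-Trikine change of Fn1 was 1.72 (adjusted p = 1.57e-04), and the part of fibroblast transcripts in it was otherwise not tested.

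Growth factors split with mono-IL10, 2 raised and 2 lowered of 13. Nrg1 was 247, 413, 285, 1065 and 460.1 CPM in PBS mice, 1717, 1689.9, 1133, 1377 and 1144 in mono-IL10 mice and 878, 1317, 1481, 611 and 817 in IL10/2-Trikine mice. All mono-IL10 mice lay above the PBS mice, PBS mouse 4 being far above its group, and the change was 1.64 ± 0.35 (adjusted p = 0.00896) with mono-IL10 and 1.21 ± 0.37 (adjusted p = 0.0953) with IL10/2-Trikine. Vegfa rose with mono-IL10 (0.64 ± 0.14, adjusted p = 0.00325), as did its relative Pgf, placental growth factor, from 16.4 ± 15.7 to 135 ± 39.7 CPM (2.78 ± 0.35, adjusted p = 8.12e-05). Igf1 was 185, 206, 257, 126 and 208 CPM in PBS mice, 93.8, 125, 90.05, 90.3 and 92.9 in mono-IL10 mice and 102, 191, 123, 73.3 and 111 in IL10/2-Trikine mice. It fell with mono-IL10 without overlap (log2 change -1.03 ± 0.16, adjusted p = 5.08e-05) and with IL10/2-Trikine (-0.61 ± 0.18, adjusted p = 0.0474), a call that ended when any 1 of 12 mice was left out (adjusted p up to 0.238). With the gate on Folr2 alone the changes of Igf1 were -0.77 (adjusted p = 0.0558) and -0.22 (adjusted p = 0.725). Gdf15, a stress-induced cytokine, averaged 365 ± 83.9, 191 ± 67.6 and 67.7 ± 39.5 CPM, changing by -0.96 ± 0.23 (adjusted p = 0.013) and -2.15 ± 0.30 (adjusted p = 5.03e-04).

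Alternative activation genes were raised for 5 and lowered for 1 of 12 with mono-IL10 (median 0.44), and raised for 1 with IL10/2-Trikine (Il4ra). Mrc1 was 2123, 2123, 2669, 1811 and 2695 CPM in PBS mice, 3964, 3867, 3298, 3468 and 3687 in mono-IL10 mice and 3034, 3915, 4509.6, 1638 and 4074 in IL10/2-Trikine mice. It rose with mono-IL10 without overlap (0.67 ± 0.18, adjusted p = 0.0255), although leaving out any 1 of 6 mice moved the adjusted p to between 0.0555 and 0.0689, and the change with IL10/2-Trikine was 0.61 ± 0.19 (adjusted p = 0.0844). Arg1 averaged 754 ± 68.5, 1933 ± 199 and 1464 ± 797 CPM (1.37 ± 0.30, adjusted p = 0.0106, with mono-IL10; 1.02, adjusted p = 0.255, after thinning). The eosinophil attractant Ccl24 was 90.2, 19.97, 31.7, 16.8 and 40.8 CPM in PBS mice, 277, 398, 416, 564 and 180.1 in mono-IL10 mice and 18.7, 205, 264, 0 and 321 in IL10/2-Trikine mice, so that mono-IL10 mice all lay above PBS and IL10/2-Trikine mice did not (2.96 ± 0.66, adjusted p = 0.0116; 1.82 ± 0.77, adjusted p = 0.247). The Ccl24 call ended after thinning (adjusted p = 0.269) and with the gate on Folr2 alone (1.38, adjusted p = 0.121). The lectin Mgl2 fell with mono-IL10 (-2.21 ± 0.41, adjusted p = 0.00358). Pf4 did not pass in either comparison (0.41 ± 0.24 and -0.01 ± 0.24).

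**Figure D3:**
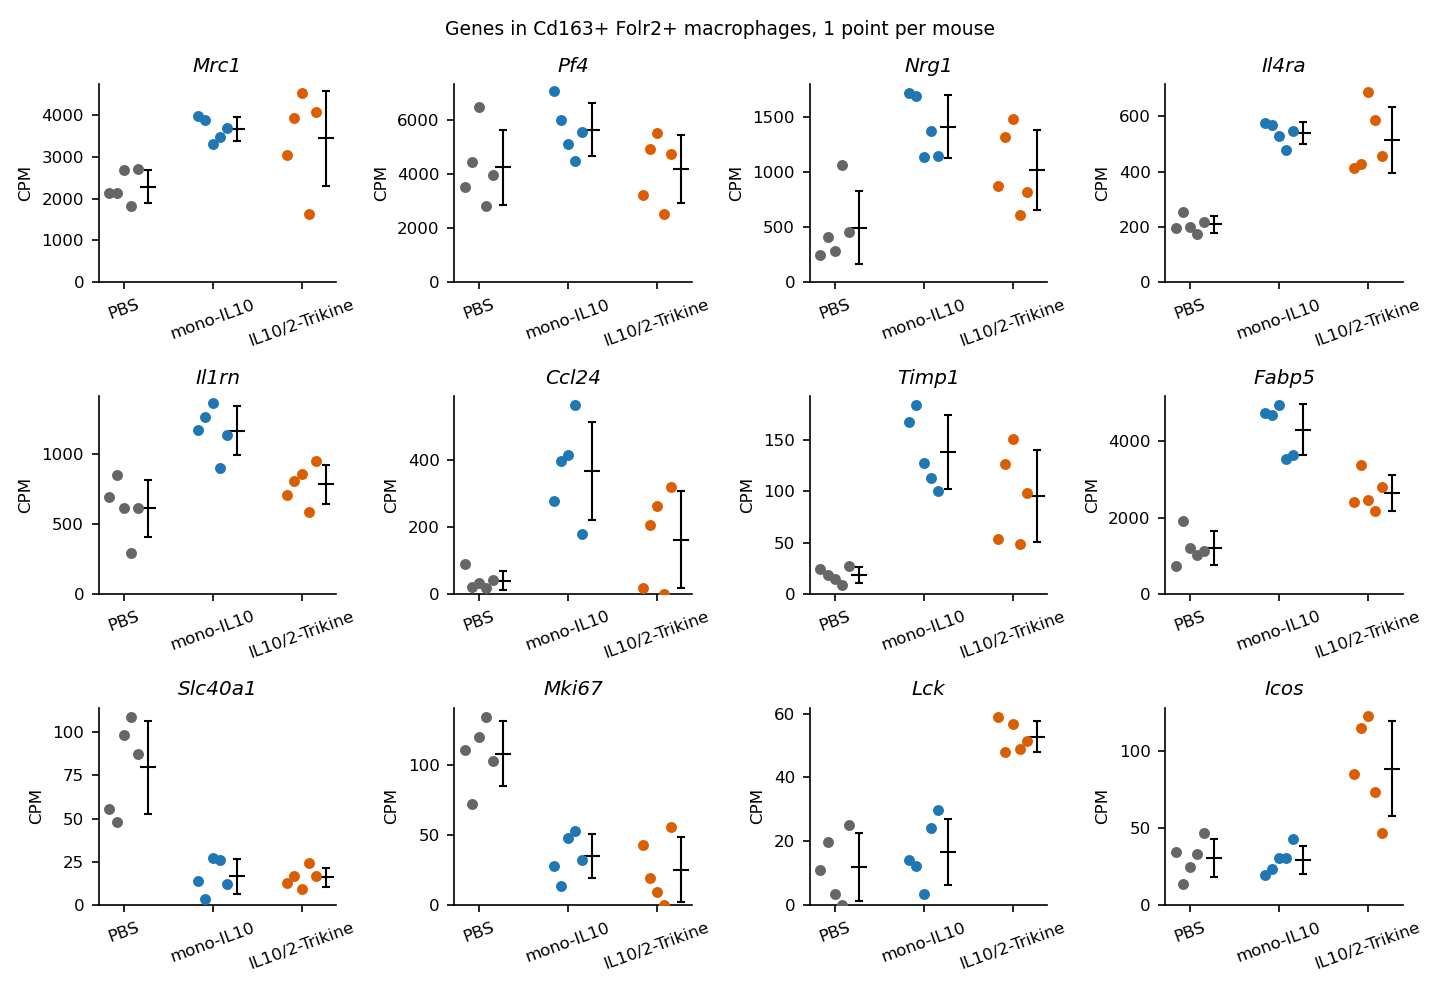
Level of 12 genes (CPM, vertical axes) in Cd163+ Folr2+ macrophages by treatment. Each point is a mouse and the black mark is the mean ± SD of 5 mice. Il4ra and Timp1 lay above PBS in both treated groups, Slc40a1 below it, and Lck and Icos were high in the IL10/2-Trikine mice.

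Lipid handling genes were 3 up and 3 down of 15 with mono-IL10, and 1 up and 1 down with IL10/2-Trikine. Fabp5, a fatty acid carrier, was 724, 1921, 1190.0, 1031 and 1130.0 CPM in PBS mice, 4733, 4677, 4950.5, 3524 and 3634 in mono-IL10 mice and 2412, 3374, 2472, 2175 and 2790.5 in IL10/2-Trikine mice. The 3 groups did not overlap, mono-IL10 being highest, and the changes against PBS were 1.84 ± 0.22 (adjusted p = 8.16e-05) and 1.15 ± 0.22 (adjusted p = 0.00725). The latter did not pass without cells holding lymphocyte transcripts (1.11, adjusted p = 0.0598). Between the 2 proteins the test did not call Fabp5. Of the 15 lipid genes it called 2, Plin2 and Npc2, both lower with IL10/2-Trikine. The lysosomal lipase Lipa fell in both (-1.19 ± 0.21 and -1.15 ± 0.26), and the fatty acid scavenger receptor Cd36 fell with mono-IL10 (-2.98 ± 0.69). Hypoxia and glycolysis genes rose for 5 of 14 with mono-IL10 (median 0.45) and for none with IL10/2-Trikine, the lipid droplet protein Hilpda by 0.69 ± 0.11 (adjusted p = 6.77e-05).

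Heme and iron genes fell for 3 of 13 with mono-IL10 and 4 of 13 with IL10/2-Trikine and rose for none, with medians of -0.25 and -0.49. Ferroportin, Slc40a1, was 55.4, 47.9, 98.6, 109 and 87.4 CPM in PBS mice, 14.2, 3.75, 27.4, 26.4 and 12.5 in mono-IL10 mice and 12.9, 17.2, 9.43, 24.4 and 17.1 in IL10/2-Trikine mice. Every treated mouse lay below every PBS mouse (-2.24 ± 0.31, adjusted p = 2.88e-05; -2.26 ± 0.40, adjusted p = 0.00101). Without cells of other-lineage UMIs the IL10/2-Trikine change of Slc40a1 was -1.97 (adjusted p = 0.185). Slc11a1 averaged 178 ± 35.8, 94.1 ± 16.98 and 72.1 ± 15.8 CPM and fell in both (-0.87 ± 0.15 and -1.30 ± 0.19), and Nfe2l2, the regulator of antioxidant and iron genes, fell in both (-0.64 ± 0.11 and -0.71 ± 0.12). Hmox1, which was high in these cells against the other macrophages, averaged 736 ± 384, 545 ± 118 and 482 ± 212 CPM with wide spread and did not pass (-0.41 ± 0.34, adjusted p = 0.525; -0.67 ± 0.38, adjusted p = 0.43).

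Cell cycle genes fell for 9 of 12 with mono-IL10 and 2 of 12 with IL10/2-Trikine, with medians of -1.36 and -0.77. Mki67, the proliferation antigen, was 111, 71.9, 119.7, 134 and 103 CPM in PBS mice, 27.8, 14.1, 47.9, 52.9 and 32.6 in mono-IL10 mice and 43.1, 19.1, 9.43, 0 and 55.6 in IL10/2-Trikine mice. No treated mouse reached the lowest PBS mouse (-1.66 ± 0.29, adjusted p = 7.58e-04; -1.63 ± 0.37, adjusted p = 0.0124). The topoisomerase Top2a averaged 165 ± 94.1, 35.97 ± 19.3 and 51.01 ± 37.1 CPM (-2.06 ± 0.44, adjusted p = 0.0083, with mono-IL10). The calls of Mki67 and Top2a were lost when cells with any UMI of the epithelial, fibroblast, endothelial and B cell genes named above were left out, with Mki67 at -1.01 (adjusted p = 0.545) and -0.18 (adjusted p = 0.972) and Top2a at -1.42 (adjusted p = 0.522) with mono-IL10, whereas the replication factor Mcm3 kept its call with mono-IL10 (-1.46, adjusted p = 0.0130) and lost that with IL10/2-Trikine (-1.15, adjusted p = 0.227). Without IL10/2-Trikine mouse 2, Mki67 changed by -1.37 with IL10/2-Trikine (adjusted p = 0.0673).

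Resident and perivascular genes moved both ways with mono-IL10, 4 up and 5 down of 22 (median -0.17), and were 1 up and 3 down with IL10/2-Trikine (median 0.02). Fcna was 147, 198, 317, 151 and 247 CPM in PBS mice, 136, 104, 132, 66.1 and 107 in mono-IL10 mice and 124, 195, 292, 171 and 163 in IL10/2-Trikine mice. Mono-IL10 mice lay below PBS (-0.93 ± 0.23, adjusted p = 0.0111) and IL10/2-Trikine mice overlapped them (-0.27 ± 0.25, adjusted p = 0.673). With the gate on Folr2 alone the mono-IL10 change of Fcna was -0.15 (adjusted p = 0.772), and after thinning -0.80 (adjusted p = 0.184). Ltc4s, the leukotriene C4 synthase, averaged 104 ± 33.7, 44.00 ± 7.57 and 57.5 ± 28.04 CPM and fell with mono-IL10 (-1.33 ± 0.20, adjusted p = 3.00e-05) and IL10/2-Trikine (-0.84 ± 0.23, adjusted p = 0.0323). The IL10/2-Trikine call of Ltc4s did not hold in DESeq2 (adjusted p = 0.0561), after thinning (adjusted p = 0.0779) or without PBS mouse 1, 2 or 5 or IL10/2-Trikine mouse 2, 4 or 5 (adjusted p up to 0.195), and with the gate on Folr2 alone stood at -0.068 (adjusted p = 0.924). The mono-IL10 change of Ltc4s was then -0.50 (adjusted p = 0.0721). Fcgrt rose in both (0.53 ± 0.12 and 0.48 ± 0.13). Cx3cr1 averaged 206 ± 80.2, 57.3 ± 23.4 and 73.4 ± 38.1 CPM and fell with mono-IL10 (-1.86 ± 0.34, adjusted p = 0.00302). Nt5e, the adenosine-producing enzyme CD73, averaged 42.01 ± 7.55, 95.1 ± 18.2 and 96.8 ± 8.69 CPM and rose in both, without overlap (1.11 ± 0.18 and 1.14 ± 0.20).

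Several groups held few or no calls. Of 15 interferon-gamma response genes and 11 MHC class I genes, 0 passed in either comparison with PBS, with medians between -0.41 and -0.03. Of 8 MHC class II genes, the protease Ctss rose with mono-IL10 and no other passed, although the medians were -0.80 with mono-IL10 and -0.62 with IL10/2-Trikine, H2-Aa averaging 969 ± 562, 514 ± 70.3 and 689 ± 517 CPM (-0.93 ± 0.39, adjusted p = 0.163). Dendritic cell markers in the gated cells summed to medians of 160, 75.5 and 82.8 plain CPM in PBS, mono-IL10 and IL10/2-Trikine mice. Their ranges were 117 to 236, 34.5 to 143 and 51.7 to 113, and their part in these medians was not tested. Of 9 inflammatory genes 0 passed in either comparison, and of 11 CC chemokines Ccl24 alone did, with mono-IL10. Cxcl9, a T cell attractant induced by interferon-gamma, averaged 155 ± 135, 139.8 ± 97.5 and 70.7 ± 53.3 CPM, with a wide spread between mice and no call (-0.02 ± 0.68 and -1.48 ± 0.93).

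**Figure D4:**
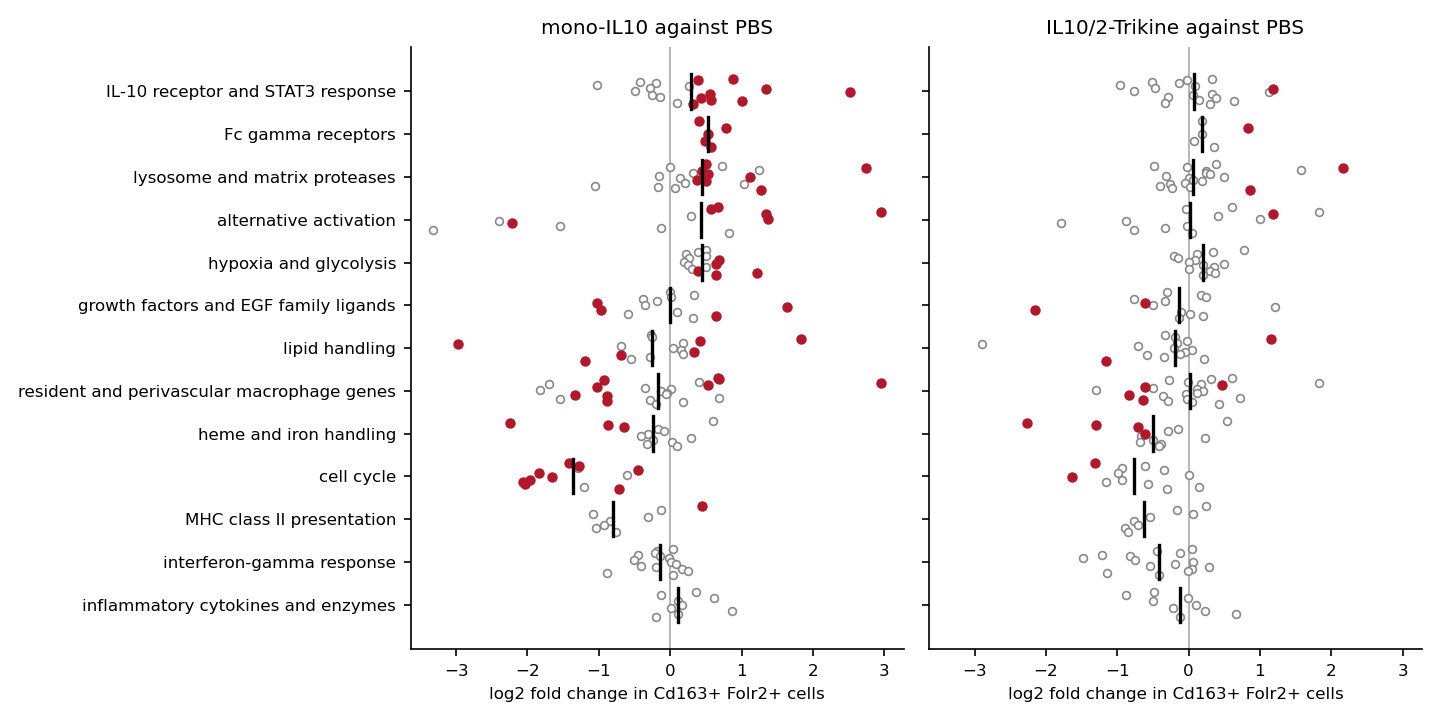
Log2 fold change against PBS (horizontal axes) of the tested genes of 13 lists (rows) in Cd163+ Folr2+ macrophages, for mono-IL10 (left) and IL10/2-Trikine (right). Red points passed an adjusted p of 0.05, open grey points did not, and the black bar is the list's median. Of the IL-10 receptor and STAT3 list, 9 of 18 genes rose on the left and 1 of 18 on the right, and of the 13 lists the cell cycle list sat lowest on both sides (medians -1.36 and -0.77).

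Between the 2 proteins, 113 of 6812 genes differed (1.66%), 46 higher (0.675%) and 67 lower (0.984%) with IL10/2-Trikine. Leaving out IL10/2-Trikine mouse 1, 2 or 3 brought the count to 37, 62 or 61, and leaving out mono-IL10 mouse 1 or 2 to 57 or 74. The mice of these 2 groups did not overlap for 4.32% of genes. No IL-10 receptor and STAT3 gene differed between them (0 of 18, median -0.18). Nor did any Fc gamma receptor (0 of 5), lysosome and matrix protease gene (0 of 19) or cell cycle gene (0 of 12). The unequal counts of these lists against PBS are thus not a tested difference. Lower with IL10/2-Trikine were Tgfbi (-0.74 ± 0.12, adjusted p = 7.27e-04), Pgf (-1.47 ± 0.32, adjusted p = 0.0329), Hilpda (-0.60 ± 0.12, adjusted p = 0.00428), and Odc1, which makes polyamines (-0.77 ± 0.18). Of 12 interleukin-2 receptor and STAT5 genes, the receptor chain Csf2rb was lower (-0.61 ± 0.13) and the survival factor Bcl2 higher (1.01 ± 0.26, adjusted p = 0.0347), with a median of 0.03. The Bcl2 call ended without any 1 of mono-IL10 mice 1, 2 and 3 or IL10/2-Trikine mice 1, 3 and 5 (adjusted p up to 0.154). In plain CPM, Bcl2 averaged 46.8, 28.8 and 62.6 in PBS, mono-IL10 and IL10/2-Trikine mice. It averaged 20.8, 16.4 and 25.7 when cells holding lymphocyte transcripts were left out. The IL10/2-Trikine mice overlapped the mono-IL10 mice with those cells (25.9 to 129 against 18.3 to 38.6) and without them (13.5 to 45.6 against 11.2 to 24.7). Leaving out IL10/2-Trikine mouse 1 ended the calls of Csf2rb (adjusted p = 0.103) and Odc1 (adjusted p = 0.143), the latter also ending without any 1 of 6 other mice, and after thinning Csf2rb (adjusted p = 0.430) and Hilpda (adjusted p = 0.123) did not pass. The Pgf call ended when any 1 IL10/2-Trikine mouse or mono-IL10 mouse 5 was left out, with an adjusted p of up to 0.187. The largest rise among the genes named by the size and separation of their change was that of Fgf13 (2.36 ± 0.50, adjusted p = 0.00842), which averaged 18.6 ± 8.05, 4.05 ± 2.07 and 25.01 ± 13.98 CPM in PBS, mono-IL10 and IL10/2-Trikine mice. Without cells holding lymphocyte transcripts Fgf13 fell under the filter on low counts, at 15.6, 1.77 and 7.13 plain CPM, and the IL10/2-Trikine mice (0 to 13.2) overlapped the mono-IL10 mice (0.614 to 3.32). Higher too were the calcium-binding protein S100a6 (0.97 ± 0.14, adjusted p = 6.20e-04), the kinase Prkca (0.96 ± 0.23, adjusted p = 0.0257), which stood at 0.39 (adjusted p = 0.783) without cells holding lymphocyte transcripts, and the nucleolar protein Nolc1 (0.83 ± 0.22, adjusted p = 0.0395), at 0.80 (adjusted p = 0.172) without them.

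Lck, the T cell receptor kinase, was 11.1, 19.97, 3.52, 0 and 25.2 CPM in PBS mice, 14.2, 12.2, 3.42, 24.2 and 29.7 in mono-IL10 mice and 58.9, 47.9, 56.6, 48.9 and 51.4 in IL10/2-Trikine mice. Icos, a T cell costimulatory receptor, was 34.8, 13.98, 24.6, 33.5 and 46.6 CPM in PBS mice, 19.6, 23.5, 30.8, 30.9 and 43.1 in mono-IL10 mice and 84.8, 115, 123, 73.3 and 47.1 in IL10/2-Trikine mice. Every IL10/2-Trikine mouse was above every other mouse for both genes (1.72 ± 0.36 against mono-IL10, adjusted p = 0.0137, for Lck and 1.65 ± 0.26, adjusted p = 6.20e-04, for Icos). For Icos this held narrowly against PBS, and in plain CPM the lowest IL10/2-Trikine mouse (44.2) lay under the highest PBS mouse (45.7). Leaving out mono-IL10 mouse 1 or IL10/2-Trikine mouse 1 or 3 ended the Lck call, with an adjusted p of up to 0.126. Gimap4 (1.92 ± 0.32), Gimap3 (1.89 ± 0.34), the integrin Itgb7 (1.81 ± 0.36), Sh2d2a (1.47 ± 0.37) and Satb1 (1.08 ± 0.28), all known from T cells, were higher too. The calls of Sh2d2a and Satb1 ended without any 1 IL10/2-Trikine mouse or mono-IL10 mouse 1, 2 or 3 (adjusted p up to 0.162 and 0.154), and that of Itgb7 without IL10/2-Trikine mouse 2 (adjusted p = 0.0707). Itgb7 also fell with mono-IL10 against PBS (-1.37 ± 0.36, adjusted p = 0.00974), while with IL10/2-Trikine it stood at 0.44 ± 0.36 against PBS (adjusted p = 0.612).

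Other lymphocyte transcripts moved with these genes. The 7 T cell markers (Cd3e, at 0 by the rule, included) summed to medians of 78.3, 77.7 and 255 plain CPM in the gated cells of PBS, mono-IL10 and IL10/2-Trikine mice (ranges 40.1 to 129, 51.9 to 124 and 103 to 377). The 6 NK cell markers, of which Ncr1 and Klrb1c are at 0 by the rule, summed to 64.7, 74.7 and 255. In the other macrophages the medians were 83.6, 99.3 and 202 for T cells and 49.3, 61.5 and 259 for NK cells. At least 1 UMI of the lymphocyte genes Cd3d, Cd3g, Trac, Trbc2, Nkg7, Klre1, Gzma and Prf1 was counted in 40 of 251 PBS cells, 92 of 694 mono-IL10 cells and 136 of 411 IL10/2-Trikine cells. By mouse the share was 10.7, 11.1, 20, 40 and 18.2% in PBS, 14.7, 11.4, 6.54, 20.6 and 14.6% in mono-IL10 and 37.4, 29.0, 34.4, 30 and 30% in IL10/2-Trikine. The IL10/2-Trikine mice all lay above the mono-IL10 mice, at the lowest depth per cell, and PBS mouse 4, with 15 cells, lay above them all. In the other macrophages the share ran from 10.8 to 24.6%, from 9.43 to 18.9% and from 26.7 to 34.6%. Without those cells, Lck was at 0.638, 0.869 and 8.24 plain CPM instead of 11.5, 15.5 and 51.7, and Icos at 0.638, 1.39 and 17.6 instead of 30.4, 27.3 and 86.9. Both were lower in every group, on 1, 4 and 6 UMIs of Lck and 1, 8 and 12 of Icos in 4 PBS, 5 mono-IL10 and 4 IL10/2-Trikine mice. Lck was still at 5.28 to 15.2 plain CPM in the IL10/2-Trikine mice, above the 0 to 2.55 and 0 to 2.25 of the others, while Icos ran from 0 to 45.6 and overlapped them. Lck, Icos, Gimap3, Gimap4, Itgb7 and Sh2d2a then fell under the filter on low counts and neither S100a6 (0.66, adjusted p = 0.290) nor Satb1 (1.29, adjusted p = 0.205) passed, Satb1 being at 27.5, 10.4 and 25.7 plain CPM instead of 49.5, 43.4 and 107, while 182 genes changed against PBS and 45 against mono-IL10. Il4ra kept its changes of 1.32 and 1.29 against PBS. Il2rb, the receptor chain that IL10/2-Trikine engages, went from 51.8, 38.6 and 116 plain CPM to 1.40, 0.995 and 17.2, as a description.

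**Figure D5:**
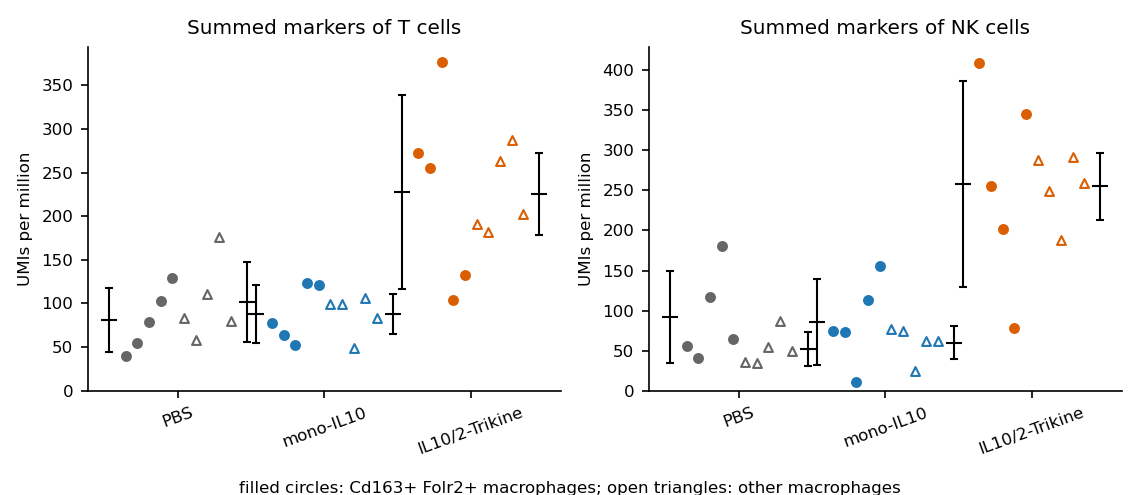
Summed T cell markers (left) and NK cell markers (right) in plain CPM, by treatment. Each symbol is a mouse, filled circles for Cd163+ Folr2+ macrophages and open triangles for the other macrophages. Medians in the gated cells were 78.3, 77.7 and 255 for T cell markers in PBS, mono-IL10 and IL10/2-Trikine.

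Treatment effects inside the gate were set against those in the other macrophages of the same mice. The 2 sets are cut by Cd163 and Folr2, whose mean levels over all macrophages were higher in both treated groups. Cells that passed from 1 set to the other and a different response within a set cannot be told apart. In edgeR the test of the difference between the 2 effects called 24 of 10266 genes for mono-IL10 (0.234%), 6 with a higher (0.0584%) and 18 with a lower effect (0.175%) in the gated cells, and 11 for IL10/2-Trikine (0.107%), 2 higher (0.0195%) and 9 lower (0.0877%). For IL10/2-Trikine against mono-IL10 edgeR called 0, with 389 at an unadjusted p under 0.05, and DESeq2 called 0. For mono-IL10 and IL10/2-Trikine DESeq2 called 64 and 61, and edgeR with no filter on low counts 71 and 48. Leaving out 1 mouse gave 15 (PBS mouse 2) to 25 for mono-IL10, and for IL10/2-Trikine from 2 (IL10/2-Trikine mouse 2) to 25 (mono-IL10 mouse 2). Il4ra differed by 0.23 ± 0.12 (adjusted p = 0.636), Nrg1 by 0.53 ± 0.22 (adjusted p = 0.531) and Fabp5 by 0.50 ± 0.17 (adjusted p = 0.394) for mono-IL10, and Lck by 0.55 ± 0.43 and Icos by 0.53 ± 0.41 for IL10/2-Trikine (adjusted p = 0.868 and 0.868). Timp1 (1.62 ± 0.25, adjusted p = 4.78e-04) and Tgfbi (0.65 ± 0.12, adjusted p = 0.0103) rose more with mono-IL10 in the gated cells than in the others. The effect was lower in the gated cells for the resident genes Fcna (-1.22 ± 0.16, adjusted p = 1.18e-05), Ltc4s (-1.36 ± 0.20, adjusted p = 1.44e-04), Gas6 (-0.87 ± 0.14, adjusted p = 5.38e-04) and C4b (-1.65 ± 0.30, adjusted p = 0.00777). With IL10/2-Trikine, Gas6 (-1.05 ± 0.17, adjusted p = 0.00104) and Fcgrt (-0.49 ± 0.11, adjusted p = 0.032) had a lower effect and Nt5e a higher one (1.30 ± 0.22, adjusted p = 0.00203). After thinning the differences of Fcna (-0.90, adjusted p = 0.201), Ltc4s (-1.37, adjusted p = 0.0516), Timp1 (1.16, adjusted p = 0.501) and Tgfbi (0.57, adjusted p = 0.0545) with mono-IL10 did not pass, nor did those of Gas6, Fcgrt and Nt5e with IL10/2-Trikine (adjusted p = 0.440, 0.446 and 0.0614). Without cells of other-lineage UMIs, those of Ltc4s (adjusted p = 0.0680) and Timp1 (adjusted p = 0.222) with mono-IL10 and of Fcgrt (adjusted p = 0.245) and Nt5e (adjusted p = 0.288) with IL10/2-Trikine did not pass. The C4b difference ended without PBS mouse 1 (adjusted p = 0.0533), and that of Fcgrt without any 1 of PBS mice 2, 4 and 5 or IL10/2-Trikine mice 1, 2 and 3 (adjusted p up to 0.229). The Nt5e difference did not pass when cells with lymphocyte transcripts were left out (1.03, adjusted p = 0.635), nor did those of Gas6 with IL10/2-Trikine (-0.82, adjusted p = 0.331) and Ltc4s with mono-IL10 (adjusted p = 0.0561), and under that gate 0 genes were called for IL10/2-Trikine.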

How the data were processed

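Droplet single-cell RNA-seq of CD45+ tumor cells was used from 3 libraries, 1 per treatment with 5 hashtagged mice each. The authors deposited raw UMI counts per gene, hashtag and barcode, made with Cell Ranger against GRCm39, as filtered barcode lists. The submitters' processing notes name Seurat 5.1.0 and DESeq2 1.46.0, used on the T and NK cells. The deposited annotation of T and NK cells served only to leave those cells out, and 7858 annotated cells of a group without a sample here were not used. No doublet caller was run, so that the single-hashtag, keratin and lymphocyte clauses of the rule were the only guards against doublets.

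Cd163+ Folr2+ cells and the sets they were compared with were summed per mouse (at least 10 cells), filtered with filterByExpr, scaled by trimmed means and tested with edgeR 4.0.16 (R 4.3.3) by the quasi-likelihood test, with Benjamini-Hochberg adjustment over all genes kept and a threshold of 0.05. Treatments were compared in 1 fit of the 3 groups, and cell sets within mice with the mouse as a block. CPM are UMIs per 1000000 after this scaling, and plain CPM without it. Standard errors (SE) are the log2 fold change divided by the root of its F statistic, which is approximate. SDs are over the 5 mice of a group unless 15 mice are named. Genes of the rule were not tested, nor were Mrc1, Pf4 and Nrg1 between cell sets.

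The cells, the gene lists and the tests were chosen with earlier results of these data known. Genes named beside the lists were, per comparison, the 12 largest rises and 12 largest falls past the threshold with a mean of at least 20 CPM in 1 group and with mice of the groups that did not overlap, or, within mice, changed the same way in every mouse. Gene models and receptor segments were not named. Of the lists, 2 to 4 members past the threshold were named in order of adjusted p, besides genes described for their role, and for differences of effects the 10 with the smallest p. Fn1, Tgfbi, Pgf and Gja1 came from the first rule. Alternatives were DESeq2 1.42.0, other size factors, no filter, thinning to 3000 UMIs, other hashtag and gene minimums, stricter or looser gates, only the groups compared and leaving out each mouse. Leaving out cells with T or NK transcripts, and mice under 20 cells, were chosen after seeing the data. The scripts were tested on simulated data, and tables were made with Python 3.11.15. Single values of some list members are not reported here.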

Additional observations from a re-analysis of the deposited data

Results flagged for a closer look

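In 8 of 81 groups of 5 mice, 1 mouse stood apart from the rest of its group by more than 0.71 of the group's range. About 1 in 20 groups would do so for normally distributed values of equal precision. These CPM rest on unequal numbers of cells, so that the 8 cannot be read against that rate. All values are CPM in Cd163+ Folr2+ macrophages. Cx3cr1 was 98.03 in mono-IL10 mouse 3 (group median 45.99) and 141 in IL10/2-Trikine mouse 1 (median 56.6). Folr2, a gene of the gate, was 698 in IL10/2-Trikine mouse 3 (median 464). Gdf15 was at 0 in IL10/2-Trikine mouse 4, the mouse with 10 cells (median 77.04). Gja1 was 102 in PBS mouse 3 (median 27.96) and Nrg1 was 1065 in PBS mouse 4, which had 15 cells (median 413). Igf1 was 125 (median 92.9) and Pgf 205 (median 121) in mono-IL10 mouse 2, the mouse whose cells held the most fibroblast transcripts, whose part in these values was not tested.

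The test of the difference of effects between Cd163+ Folr2+ and other macrophages called 24 genes for mono-IL10 and 11 for IL10/2-Trikine. The 10 with the smallest p of each, 20 values, are given here as the log2 effect in the gated cells minus that in the others. For mono-IL10 the effect was lower in the gated cells for C4b (-1.65), Ltc4s (-1.36), Fcna (-1.22), the ubiquitin ligase Mylip (-0.92), Gas6 (-0.87), the phospholipid transfer protein Pltp (-0.80), Psd3 (-0.72) and the metalloprotease inhibitor Timp2 (-0.55), and higher for Timp1 (1.62) and Tgfbi (0.65). For IL10/2-Trikine it was lower for Ltc4s (-1.18), Gas6 (-1.05), the thioredoxin inhibitor Txnip (-0.78), the chemokine Ccl12 (-0.77), the transcription factor Klf2 (-0.76), Pid1 (-0.75), the ubiquitin ligase Wwp1 (-0.65), Serpinb6a (-0.65) and Fcgrt (-0.49), and higher for Nt5e (1.30). None of the IL10/2-Trikine values passed the threshold once cells with T or NK transcripts were left out, a gate that also left fewer cells and mice.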

How the results depend on the processing

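No paired analysis was possible because hashtag numbers are labels within a library and tie no mouse of 1 treatment to a mouse of another. Of the values of named genes under the alternatives, 8214 kept direction and side of the threshold, 825 kept direction only and 3 reversed, all 3 on thinning to 3000 UMIs: Stat3 with mono-IL10 (-0.033, adjusted p = 0.949), Itgam against the Arg1-high set (-0.012) and Mmp14 against the Cx3cr1+ set (0.000488). For 20 further values DESeq2 gave no adjusted p. These counts pool all comparisons and include the refits without 1 mouse. A gene under the filter on low counts gave no value. On thinning, 27 values of mono-IL10 against PBS kept direction and call, 30 kept direction only and 1 reversed. For IL10/2-Trikine against PBS, 10 differences of effects kept direction only on thinning, as did 10 without cells holding T or NK transcripts. The causes of the shifts below were not tested. Stricter gates and thinning also left fewer cells and dropped mice with under 10 gated cells. PBS mouse 4 and IL10/2-Trikine mouse 4 were dropped on thinning, a hashtag share of at least 0.8 and the T and NK gate. IL10/2-Trikine mouse 4 was dropped on the other-lineage gate, and IL10/2-Trikine mice 3 and 4 at 2000 genes per cell.

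Thinning gave 211, 163 and 40 changed genes for mono-IL10 against PBS, IL10/2-Trikine against PBS and IL10/2-Trikine against mono-IL10, and 1257, 950 and 1747 against the other, Cx3cr1+ and Arg1-high macrophages. It gave 4 differences of effects for IL10/2-Trikine and 4 between the proteins, and moved the mean mono-IL10 share to 6.02%. Without cells holding epithelial, fibroblast, endothelial or B cell UMIs the treatment counts were 285, 88 and 13, and those of differences of effects 9 for mono-IL10 and 5 for IL10/2-Trikine. Without cells holding T or NK transcripts, 182 genes changed with IL10/2-Trikine, 45 between the proteins, and 15 and 0 differences of effects were called. The gate on Folr2 alone, which holds more cells, gave 2392, 1367 and 1384. At least 2000 genes per cell, with 3 IL10/2-Trikine mice left, gave 185 with IL10/2-Trikine, 183 between the proteins and 2 differences of effects between them. No filter gave 379 between the proteins and 71, 48 and 6 differences of effects. DESeq2 gave 64 and 61 differences of effects for mono-IL10 and IL10/2-Trikine, only the 2 groups compared gave 177 between the proteins, and only mice with at least 20 cells gave 17 differences of effects for IL10/2-Trikine. Relative log expression size factors split the mono-IL10 calls 371 up and 382 down, and the differences of effects 4 and 28.

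Leaving out 1 mouse gave 593 to 817 for mono-IL10 and 170 to 328 for IL10/2-Trikine (196 and 170 without IL10/2-Trikine mice 1 and 2). Between the proteins it gave 37 to 142, with 57 and 74 without mono-IL10 mice 1 and 2 and 37, 62 and 61 without IL10/2-Trikine mice 1, 2 and 3. Against the other macrophages it gave 1919 to 2260. Differences of effects ran from 15 (without PBS mouse 2) to 25 for mono-IL10, from 2 to 25 for IL10/2-Trikine and from 0 to 4 between the proteins. For IL10/2-Trikine they numbered 4 without PBS mouse 5, 25 without mono-IL10 mouse 2, and 4, 2 and 6 without IL10/2-Trikine mice 1, 2 and 3, and between the proteins 4 without mono-IL10 mouse 2 and 1 without IL10/2-Trikine mouse 2. Mean shares ran from 2.69% to 3.63%, 9.72% to 11.3% and 5.54% to 7.66% in PBS, mono-IL10 and IL10/2-Trikine, Cd163 over all macrophages from 14.0 to 19.6, 86.4 to 120.0 and 91.6 to 137 plain CPM, and Folr2 from 73.5 to 87.6, 152 to 167 and 124 to 151. The 10 cells of IL10/2-Trikine mouse 4 and 15 of PBS mouse 4 limit what can be seen of low genes.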

Other observations

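Other genes separated the treatments in Cd163+ Folr2+ macrophages without belonging to a list. Gja1, connexin 43, was 36.4, 27.96, 102, 16.8 and 17.5 CPM in PBS mice 1 to 5, 305, 321, 217, 372 and 288 in mono-IL10 mice and 118, 211, 368, 122 and 227 in IL10/2-Trikine mice, and rose by 2.95 ± 0.39 (adjusted p = 3.21e-04) and 2.37 ± 0.44 (adjusted p = 0.00792) on the log2 scale. The latter did not pass without cells holding lymphocyte transcripts (2.35, adjusted p = 0.0560). Gja1 was also higher in these cells than in Cx3cr1+ macrophages of the same mice, in 15 of 15 mice (1.72 ± 0.13, adjusted p = 2.32e-11). Pgap6 was 39.5, 33.9, 45.8, 50.3 and 44.7 CPM in PBS mice, 159, 185, 133, 123 and 197 in mono-IL10 mice and 142, 138, 189, 73.3 and 116 in IL10/2-Trikine mice, without overlap between PBS and either treatment (1.97 ± 0.18, adjusted p = 1.44e-09, and 1.73 ± 0.20, adjusted p = 7.30e-07). The extracellular matrix protein Ecm1 averaged 169 ± 36.4, 531 ± 42.3 and 385 ± 88.03 CPM (SD, n = 5) and rose by 1.62 ± 0.14 and 1.21 ± 0.15. The adhesion molecule Alcam averaged 428 ± 65.2, 241 ± 65.4 and 163 ± 12.7 CPM and fell with mono-IL10 (-0.82 ± 0.14, adjusted p = 8.16e-05) and IL10/2-Trikine (-1.37 ± 0.16, adjusted p = 7.30e-07).

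With mono-IL10, the serotonin receptor Htr2b (2.33 ± 0.45), the hyaluronan-binding protein Tnfaip6 (1.95 ± 0.37) and Igfbp6 (1.70 ± 0.29), which binds insulin-like growth factors, rose from low levels. The copper-carrying ferroxidase Cp, ceruloplasmin, went from 82.8 ± 39.8 to 15.997 ± 9.67 CPM (-2.47 ± 0.46, adjusted p = 0.00302) and stood at 36.7 ± 28.1 CPM with IL10/2-Trikine (-0.72 ± 0.47, adjusted p = 0.505). The inhibitory lectin Clec12a fell with mono-IL10 (-2.14 ± 0.45), and the autophagy receptor Optn with IL10/2-Trikine (-1.76 ± 0.37).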
